A study of Mus musculus with 13 samples.

Results

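Retroelement silencing factors are described here as a group of 7 genes: Trim28, Setdb1, Zfp57, Zfp809, Atrx, Daxx and Kdm1a. They were chosen by name, with earlier results of these data known. All 7 were found by symbol among the 24470 genes of the deposited count table. The cells were E14 mouse embryonic stem cells of the 129/Ola background, an established line grown in serum with leukemia inhibitory factor, and no group carried a further genotype or treatment. In the low-input protocol the transposase Tn5 cut open chromatin in permeabilised cells and oligo-dT beads then took the mRNA from the same lysate, so 5 ATAC and 5 mRNA libraries came in matched pairs: 10000 and 20000 cells in experiment 1, and 5000, 10000 and 20000 cells in experiment 2, on another day. Omni-ATAC, an established ATAC protocol used as the benchmark, added 1 ATAC library each from 5000, 10000 and 50000 cells. No group held more than 2 libraries, and nothing in the labels says whether the libraries of an experiment came from separate cultures, so p-values measure only the spread between these libraries.

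Mouse embryonic stem cells carry many copies of endogenous retroviruses and keep most of them silent with repressive histone H3 lysine 9 methylation. KRAB zinc finger proteins such as ZFP809 and ZFP57 read the DNA sequence: ZFP809 is known for its binding to the primer binding site of murine leukemia viruses, and ZFP57 for holding methylation at imprinted regions. Both recruit TRIM28 (KAP1), a scaffold that brings in the H3 lysine 9 methyltransferase SETDB1. ATRX and DAXX act together to place histone variant H3.3 at repeats and telomeres, and KDM1A (LSD1) removes methyl groups from H3 lysine 4 and is known for repressing MERVL elements in these cells.

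The regions in front of 6 of the genes are shown first, because the ATAC results below turn on them. Each is the part of a deposited peak that lies before the gene's start, on the gene's strand, from the RefSeq promoter table of GRCm38.p6 (the assembly of mm10). For Trim28, Setdb1, Zfp809 and Daxx the peak is from the unified list. For Atrx and Kdm1a, which had none there, it is from the experiment 2 library of 20000 cells. The Daxx stretch is bounded at 250 bases before the start. Those of Daxx and Zfp809 end where the RefSeq gene begins, a little before the start in the count table. Zfp57 had no peak in this window and none is shown. Capitals mark matches, on either strand, to GGGCGG (the GC box of Sp factors), to CCGGAAG (a site of ETS factors) or to TGCCGC (the hexamer that ZFP57 is known to bind when methylated). The stretches lie at chr7:13024001-13024151 (plus strand) for Trim28, chr3:95357248-95357354 (minus) for Setdb1, chr9:22225606-22225666 (plus) for Zfp809, chrX:105929373-105929435 (minus) for Atrx, chr17:33909195-33909403 (plus) for Daxx and chr4:136602866-136602942 (minus) for Kdm1a.
Trim28: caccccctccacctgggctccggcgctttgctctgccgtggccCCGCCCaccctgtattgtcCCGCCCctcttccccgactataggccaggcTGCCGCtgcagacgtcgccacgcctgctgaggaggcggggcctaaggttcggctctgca
Setdb1: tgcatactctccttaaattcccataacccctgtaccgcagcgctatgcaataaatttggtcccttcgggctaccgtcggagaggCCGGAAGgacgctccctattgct
Zfp809: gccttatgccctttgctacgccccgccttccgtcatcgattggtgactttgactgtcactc
Atrx: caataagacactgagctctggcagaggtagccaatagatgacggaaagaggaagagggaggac
Daxx: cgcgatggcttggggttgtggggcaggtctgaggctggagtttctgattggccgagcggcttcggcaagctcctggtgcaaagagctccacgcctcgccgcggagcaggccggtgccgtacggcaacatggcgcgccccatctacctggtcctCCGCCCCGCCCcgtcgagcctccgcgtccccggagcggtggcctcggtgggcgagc
Kdm1a: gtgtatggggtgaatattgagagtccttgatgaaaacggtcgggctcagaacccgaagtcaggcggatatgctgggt

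The Trim28 stretch held 2 matches to GGGCGG and 1 to TGCCGC, the Daxx stretch 2 overlapping matches to GGGCGG, and the Setdb1 stretch 1 match to CCGGAAG. No stretch of Zfp809, Atrx or Kdm1a held a match. Over all 250 bases before the start, Setdb1 had 2 matches to CCGGAAG and 1 to GGGCGG, Daxx 1 to CCGGAAG and 2 to GGGCGG, and Trim28 1 to TGCCGC and 2 to GGGCGG. Of 32851 RefSeq promoter windows of this length, 32.7% held GGGCGG, 6.91% CCGGAAG and 8.68% TGCCGC. The palindromic site of NRF1, held by 0.782% of windows, was in no member's window, and TATAAA, the TATA box, held by 12.4%, was in that of the first Zfp57 start alone, where it occurred 1 time. The windows also differed in CG dinucleotides: Daxx had 29, Kdm1a 21, Trim28 17, Setdb1 13, Zfp809 11, and Zfp57 and Atrx 6 each, against a median of 6 over all windows. These are letter matches in a fixed window and describe the sequence only.

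The mRNA libraries held between 13727122 and 20426252 counts, and levels are given as CPM, counts scaled to the library's total. A gene at 0 may still have up to 3 counts at this depth, which is 0.147 to 0.219 CPM. The labelled cell type was checked with marker genes. All 5 of 5 embryonic stem cell markers (Pou5f1, Sox2, Nanog, Esrrb, Zfp42) were counted in every library, and together they made 1020.9 and 941.3 CPM in experiment 1 and 1068 to 1151 CPM in experiment 2. Of 4 fibroblast markers Col3a1 was at 0 in all 5 libraries and the list summed to 31.4 and 34.7 CPM in experiment 1 and 7.54 to 9.90 CPM in experiment 2, of which Thy1 alone, also a surface protein of other cell types, was 29.2 and 33.9 CPM and 6.77 to 9.78 CPM. Of 4 primitive endoderm markers (Gata4, Gata6, Sox17, Sox7) the sum was 4.55 and 5.61 CPM in experiment 1 and 0.967 to 1.71 CPM in experiment 2, where Gata6 was at 0 in the libraries of 5000 and 10000 cells. The 3 trophoblast markers (Cdx2, Elf5, Eomes) summed to 0.364 and 1.14 CPM in experiment 1 and 1.67 to 2.64 CPM in experiment 2, and Elf5 was at 0 in every library but that of 5000 cells. Between experiments edgeR called Thy1 (log2 fold change -2.19, adjusted p = 6.75e-08) and Gata6 (-3.81, adjusted p = 0.0131) lower and Zfp42 (0.38, adjusted p = 0.0282) higher. No other marker that could be tested was called. The sum of each list differed between the experiments without overlap, but no list was tested as a group. The part of these markers in the differences between experiments below was not tested.

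All 7 genes were counted in every library. Between the experiments, at 10000 and 20000 cells, 1 of them was called, against 12.5% of 12523 genes tested. This was Setdb1, which was higher in experiment 2. That call was lost in 5 of 11 alternative fits, and the value at 5000 cells (56.9 CPM) lay within the range of experiment 1. Zfp809 and Atrx had lower values in all 3 libraries of experiment 2 than in both of experiment 1, but neither passed the test. The experiments likewise did not overlap for 41.5% of all genes tested, and 23.9% were lower in this way. Trim28, Zfp57, Daxx and Kdm1a differed by less than 0.15 on the log2 scale between experiments. No member passed the test between 20000 and 10000 cells, in a fit that did not pair the libraries by experiment. Levels are given per gene and are not compared between genes, because the table gives no transcript lengths. In this poly(A)-selected bulk RNA a lower level can mean fewer cells with the transcript or less of it per cell, which cannot be told apart. The values are ordered below by the factors' roles.

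**Figure D1:**
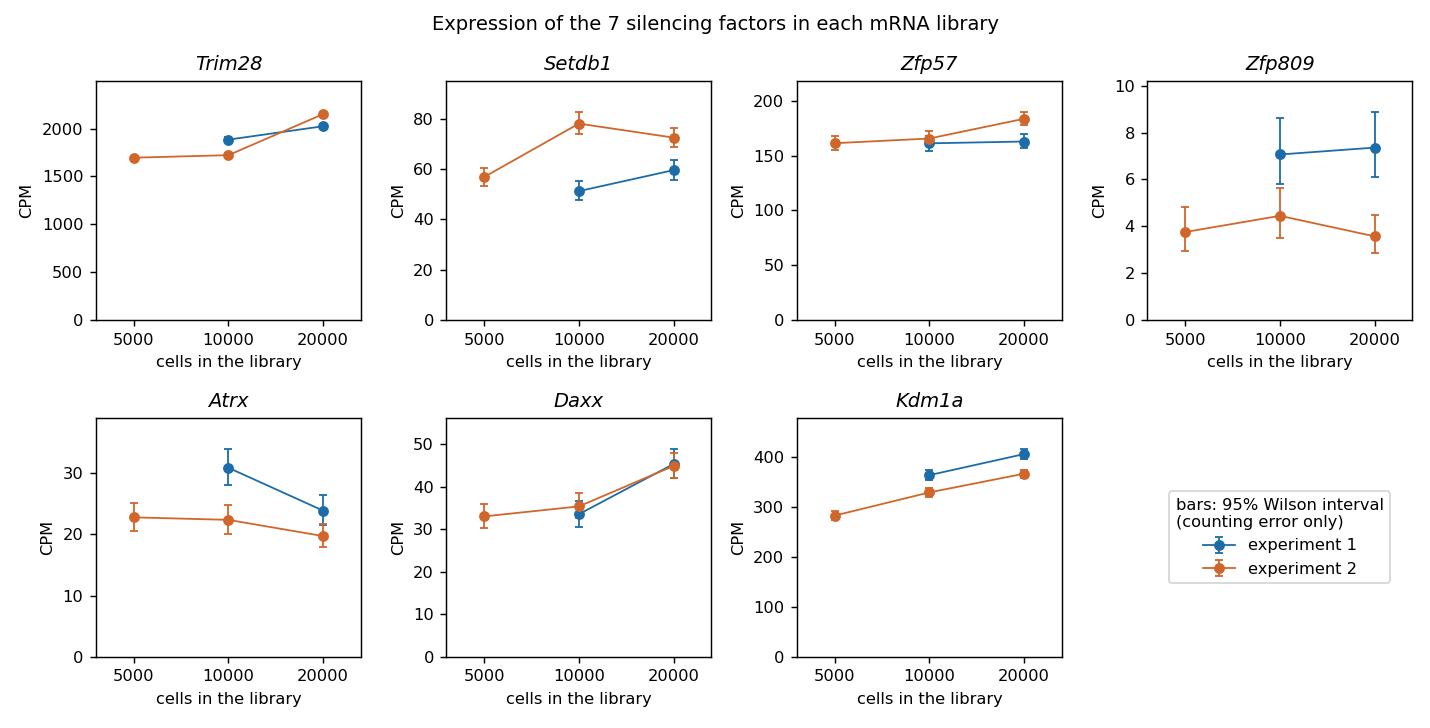
CPM of each member (vertical axis, from 0) against the number of cells in the mRNA library, with experiment 1 in blue and experiment 2 in orange; bars are 95% Wilson intervals for counting error, and lines only join libraries of an experiment. At both 10000 and 20000 cells Setdb1 is higher in experiment 2 and Zfp809, Atrx and Kdm1a are lower, while Trim28 changes order between them and the Setdb1 value at 5000 cells (56.9 CPM) lies between the experiment 1 values.

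Of the sequence readers, Zfp57 (gene ID 22715, mm10 chromosome 17, 37001163 to 37010729, plus strand) was the steadiest member. It had 161.1 CPM with 10000 cells and 162.8 with 20000 cells in experiment 1, and 161.3, 165.5 and 183.5 CPM with 5000, 10000 and 20000 cells in experiment 2. The highest value was that of the deepest library, and the other 4 lay within 5 CPM of each other. The coefficient of variation over the 5 libraries was 5.69%. Between experiments the log2 fold change was 0.11 ± 0.12 (SE, edgeR's quasi-likelihood test, adjusted p = 0.634).

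Zfp809 (gene ID 235047, chromosome 9, 22225703 to 22243354, plus strand) was the member with the fewest counts, 63 to 110 per library, and the largest relative spread, with a coefficient of variation of 35.0%. Its values were 7.07 and 7.36 CPM in experiment 1 (10000 and 20000 cells) and 3.76, 4.45 and 3.57 CPM in experiment 2 (5000, 10000 and 20000 cells). The experiments did not overlap, and all 3 libraries of experiment 2 were lower. The fitted log2 fold change was -0.85 ± 0.34 (SE), with an unadjusted p of 0.0185 and an edgeR adjusted p of 0.102, so the difference did not pass. It kept its sign in every alternative fit, with values from -1.01 to -0.68, and edgeR gave an adjusted p of 0.0984 with the library of 5000 cells included.

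Trim28 (gene ID 21849, chromosome 7, 13024152 to 13031032, plus strand), the scaffold that the zinc finger proteins recruit, had 25874 to 43939 counts per library. It had 1885 and 2025 CPM in experiment 1 (10000 and 20000 cells), and 1696, 1723 and 2151 CPM in experiment 2 (5000, 10000 and 20000 cells). The libraries of 20000 cells were the highest of both experiments, and the experiments overlapped. Between experiments the log2 fold change was -0.013 ± 0.11 (SE, edgeR adjusted p = 0.961). Between 20000 and 10000 cells it was 0.19 ± 0.14 (SE, edgeR adjusted p = 0.999).

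Setdb1 (gene ID 84505, chromosome 3, 95323525 to 95357202, minus strand), the methyltransferase, had 51.2 and 59.6 CPM in experiment 1 (10000 and 20000 cells) and 56.9, 78.0 and 72.5 CPM in experiment 2 (5000, 10000 and 20000 cells). At 10000 and at 20000 cells experiment 2 was higher, by 0.60 and 0.28 on the log2(CPM + 1) scale, and the library of 5000 cells lay between the values of experiment 1. The fit over the libraries of 10000 and 20000 cells gave means of 55.4 ± 5.90 and 75.2 ± 3.94 CPM (SD, n = 2 each) and a log2 fold change of 0.44 ± 0.14 (SE, edgeR adjusted p = 0.0406), past the threshold of 0.05.
That call was close to the threshold. With the library of 5000 cells included, edgeR gave 0.36 ± 0.14 (SE) and an adjusted p of 0.117. Without the experiment 1 library of 10000 cells edgeR gave 0.34 and an adjusted p of 0.339, without the experiment 2 library of 10000 cells 0.39 and 0.213, and without the experiment 2 library of 20000 cells 0.51 and 0.0818. Without the experiment 1 library of 20000 cells it still passed, at 0.57 and an adjusted p of 0.0295. Setdb1 shares 75 bases with the plus-strand gene Cers2, a ceramide synthase (chromosome 3, 95315190 to 95323599), at the 3′ ends of both. The sources used here do not say whether strand was used in counting, so reads in that overlap cannot be assigned to either gene. Cers2 had 11.1 and 17.2 CPM in experiment 1 and 22.2, 21.7 and 23.4 CPM in experiment 2, and it was higher too, with a log2 fold change of 0.67 ± 0.22 (SE, edgeR adjusted p = 0.0423). Its part in the Setdb1 difference was not tested.

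Atrx (gene ID 22589, chromosome X, 105797615 to 105929372, minus strand), the chromatin remodeller of the H3.3 pair, had 30.9 and 23.9 CPM in experiment 1 (10000 and 20000 cells) and 22.8, 22.4 and 19.7 CPM in experiment 2 (5000, 10000 and 20000 cells). All 3 values of experiment 2 were under both of experiment 1, by a margin of about 1 CPM at the closest. The log2 fold change was -0.38 ± 0.19 (SE, edgeR adjusted p = 0.210). Without the experiment 1 library of 10000 cells, the highest of the 5, it was -0.18 ± 0.23.

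Daxx (gene ID 13163, chromosome 17, 33909445 to 33915590, plus strand), the H3.3 chaperone that works with ATRX, had its highest values in the 2 libraries of 20000 cells. It had 33.5 and 45.3 CPM with 10000 and 20000 cells in experiment 1, and 33.0, 35.3 and 44.8 CPM with 5000, 10000 and 20000 cells in experiment 2. The other 3 libraries lay within 3 CPM of each other. The difference between 20000 and 10000 cells had the largest fitted value of the 7, a log2 fold change of 0.37 ± 0.19 (SE, unadjusted p = 0.0951, edgeR adjusted p = 0.999), and it did not pass. With the experiment number as a block the value was 0.37 and the edgeR adjusted p 0.979. Atrx differed the other way between cell numbers, by -0.30 ± 0.26 (SE, edgeR adjusted p = 0.999).

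Kdm1a (gene ID 99982, chromosome 4, 136550533 to 136602723, minus strand), the H3 lysine 4 demethylase, had 364.1 and 406.3 CPM in experiment 1 (10000 and 20000 cells) and 283.1, 329.5 and 367.0 CPM in experiment 2 (5000, 10000 and 20000 cells). Within each experiment the value was higher with more cells, as were those of Trim28, Daxx and Zfp57. Over all 5 libraries the experiments overlapped, and at matched cell numbers experiment 2 differed from experiment 1 by -0.14 (10000 cells) and -0.15 (20000 cells) on the log2(CPM + 1) scale. Between experiments the log2 fold change was -0.14 ± 0.12 (SE, edgeR adjusted p = 0.478), and between cell numbers it was 0.14 ± 0.16 (SE, edgeR adjusted p = 0.999). In RefSeq, though not in the count table, the neighbour Luzp1 reaches over the 3′ end of Kdm1a.

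**Figure D2:**
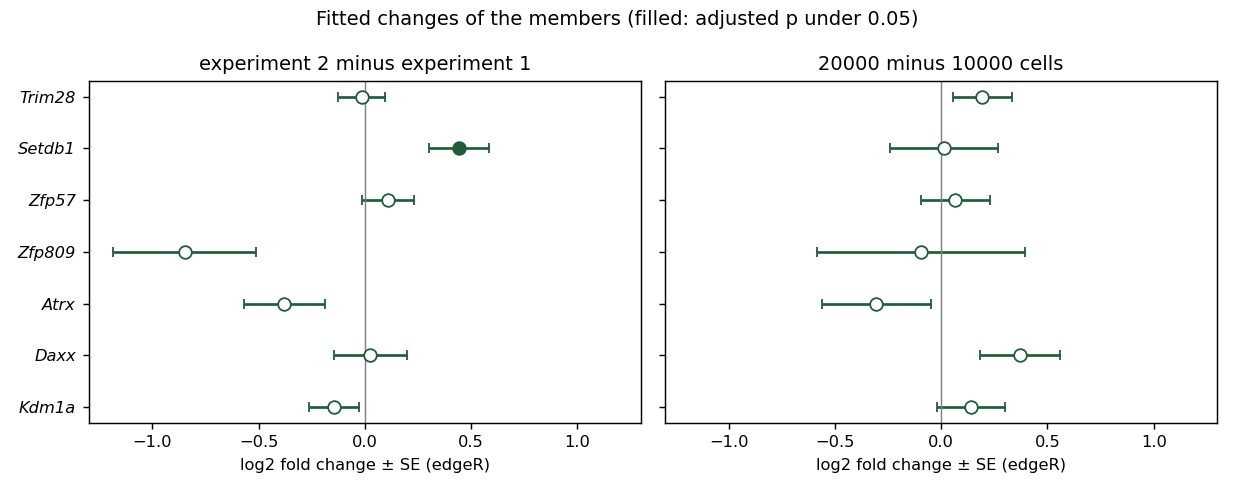
Fitted log2 fold changes of the 7 members with their standard errors (horizontal axis), for experiment 2 minus experiment 1 and for 20000 minus 10000 cells, each over 4 libraries; filled points have an edgeR adjusted p under 0.05. Only Setdb1 in the comparison of experiments (0.44) is filled, and the widest bars belong to Zfp809.

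In the comparison of experiments 1 of 7 members was called higher and 0 lower, against 12.5% of 12523 genes called in either direction (5.75% higher and 6.76% lower). The median log2 fold change of the members was -0.013, and that of all genes tested was 0.0010. The 3 experiment 2 libraries and the 2 experiment 1 libraries did not overlap for 2 of 7 members, Zfp809 and Atrx, against 41.5% of all genes tested, so by both measures the members' share was close to or below the background. An unadjusted p under 0.05 was found for 2 of 7 members, Setdb1 and Zfp809, and for 25.7% of genes. In the comparison of cell numbers edgeR called 0 of 7 members and 0% of all genes. An unadjusted p under 0.05 was found for 0 of 7 members and 0.807% of genes, and DESeq2 also called 0 members. These fits did not pair the libraries by experiment, so differences between experiments added to their spread. The lack of calls therefore cannot show that cell number had no effect. With the experiment number as a block no member was called either.

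The library of 5000 cells has no replicate and was compared with no test, as the difference in log2(CPM + 1) from the mean of the experiment 2 libraries of 10000 and 20000 cells. Against these 2 libraries Setdb1 was lower by the widest margin of the 7, at -0.40, followed by Kdm1a at -0.30, Daxx at -0.26, Trim28 at -0.18, Zfp57 at -0.11 and Zfp809 at -0.069, and Atrx was higher, at 0.11. For 0 of 7 members did the library of 5000 cells differ by 2-fold, against 2.88% of 11512 genes that averaged 1 CPM or more (8.03% when 0.1 was added to the CPM in place of 1, where again 0 members did).

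The genes whose values ran most like those of a member over the 5 mRNA libraries were found by Pearson's r of log2(CPM + 1) among 6485 genes that averaged 10 CPM or more. They were Tvp23b and Zfp335 for Trim28 (r = 0.997 and 0.995), Rps6ka3 and Maged2 for Setdb1 (0.996 and 0.995), and Zfp444 for Zfp57 (0.998). For Zfp809 they were Nap1l4 and Tomm22 (r of at least 0.996), for Atrx Ino80c and Rps19bp1 (0.996 and 0.995), for Daxx Dscc1 and Dpp3 (0.999 and 0.991) and for Kdm1a Atxn10 and Xrcc6 (0.999 each). The measure has only 5 points that share libraries and depth, and between 39 genes (Daxx) and 179 genes (Zfp809) reached an r of 0.95. Among the members themselves the highest r was 0.87, between Trim28 and Daxx, and the lowest -0.77, between Setdb1 and Atrx.

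The other genes of these pathways were taken from lists of known partners. Of 11 partners and relatives of TRIM28 and SETDB1, among them the HP1 proteins (Cbx1, Cbx3, Cbx5), Atf7ip, which stabilises SETDB1, and the NuRD remodeller Chd4, 0 were called between experiments, and the median log2 fold change was 0.11. None of 6 genes of other H3 lysine 9 methyltransferases and their partner (Ehmt1, Ehmt2, Wiz, Suv39h1, Suv39h2, Setdb2) and none of the 2 maintenance methylation genes (Dnmt1, Uhrf1) was called, where the medians were 0.12 and -0.17. Between 20000 and 10000 cells edgeR called 0 genes of any list, and for 0 was the unadjusted p below 0.05. Against a background of 12.5%, 5 further lists held 1 or 2 called genes each.

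Of the HUSH complex and Morc2a, which silence transposons by another route, 1 of 4 was called, higher in experiment 2. This was Tasor, the scaffold of HUSH, with 9.18 and 10.6 CPM in experiment 1 and 12.5, 17.2 and 17.0 CPM in experiment 2, a log2 fold change of 0.79 ± 0.22 (SE) with an edgeR adjusted p of 0.0200. As with Setdb1, its lowest experiment 2 value was that of 5000 cells. The edgeR adjusted p was between 0.0988 and 0.116 when the experiment 1 library of 10000 cells or either experiment 2 library was left out. Mphosph8, the chromodomain subunit, had a log2 fold change of 0.65 and did not pass (edgeR adjusted p = 0.0751).

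Of 6 further KRAB zinc finger genes 1 was higher and 1 lower in experiment 2. Zfp932, known to bind endogenous retroviruses, fell from 52.7 and 46.0 CPM to 39.9, 37.0 and 30.2 CPM (log2 fold change -0.56 ± 0.16 SE, edgeR adjusted p = 0.0239). Its edgeR adjusted p was 0.0932 with the library of 5000 cells included, 0.180 without the experiment 1 library of 10000 cells and 0.250 without the experiment 2 library of 20000 cells. Zfp819 rose from 1.89 and 2.07 CPM to 5.61, 4.13 and 6.32 CPM (log2 fold change 1.40 ± 0.43 SE, edgeR adjusted p = 0.0349). Its adjusted p was 0.0639 with DESeq2, and with edgeR 0.0708 without the experiment 2 library of 10000 cells and 0.374 without that of 20000 cells. Genes of this family have close copies, and how reads that match several places were counted is not given in the sources used here.

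Of 10 genes for histone H3.3 and assembly chaperones 1 was called, lower. H3f3b, which encodes H3.3 itself, had 554.9 and 559.2 CPM in experiment 1 and 420.1, 439.7 and 435.7 CPM in experiment 2, a log2 fold change of -0.35 ± 0.11 (SE) with an edgeR adjusted p of 0.0396. The second H3.3 gene, H3f3a, had a log2 fold change of 0.24 ± 0.12 (SE) and did not pass (edgeR adjusted p = 0.209). The H3f3b call was lost whichever of the 4 libraries was left out, with edgeR adjusted p-values from 0.0919 to 0.200, while the log2 fold change stayed between -0.35 and -0.32. It was also lost with the library of 5000 cells included (edgeR adjusted p = 0.0581) and without a filter on low counts (0.0605).

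Of 11 genes for partners of KDM1A and its paralog, 1 was called higher and 1 lower. The lower one was Hmg20b, an HMG-box subunit, which had 42.0 and 24.0 CPM in experiment 1 and 23.0, 19.2 and 19.9 CPM in experiment 2. Its log2 fold change was -0.75 ± 0.21 (SE, edgeR adjusted p = 0.0186). Without the experiment 1 library of 10000 cells, where it was highest, Hmg20b had -0.30 and an edgeR adjusted p of 0.557. Without an experiment 2 library of 10000 or 20000 cells its edgeR adjusted p was 0.128 or 0.0957.

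Genes linked to MERVL elements, whose transcripts are known to mark 2-cell-like cells in such cultures, were listed next to the silencing genes. A link between their levels and those of the silencing genes was not tested. Of 10 listed, 8 were in the table, 3 had enough counts to be tested, and 2 were called lower in experiment 2. Zscan4c had 88 and 86 counts in experiment 1 and 5, 18 and 3 counts in experiment 2 (5000, 10000 and 20000 cells), a log2 fold change of -3.28 ± 0.60 (SE, edgeR adjusted p = 0.000575). Without the experiment 2 library of 10000 cells the log2 fold change was -5.29, and without that of 20000 cells -2.37. Zscan4d had 31 and 38 counts in experiment 1 and 38, 6 and 0 counts in experiment 2, a log2 fold change of -3.70 ± 1.01 (SE) with an edgeR adjusted p of 0.0161. The library of 5000 cells thus had as many Zscan4d counts as the higher experiment 1 library, and with it in the fit the value was -1.36 and the edgeR adjusted p 0.420. Without either experiment 1 library, or without the experiment 2 library of 20000 cells, the edgeR adjusted p of Zscan4d was 0.0624 to 0.173. Members of the Zscan4 cluster are near-identical, so the split of reads between them is uncertain.

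**Figure D3:**
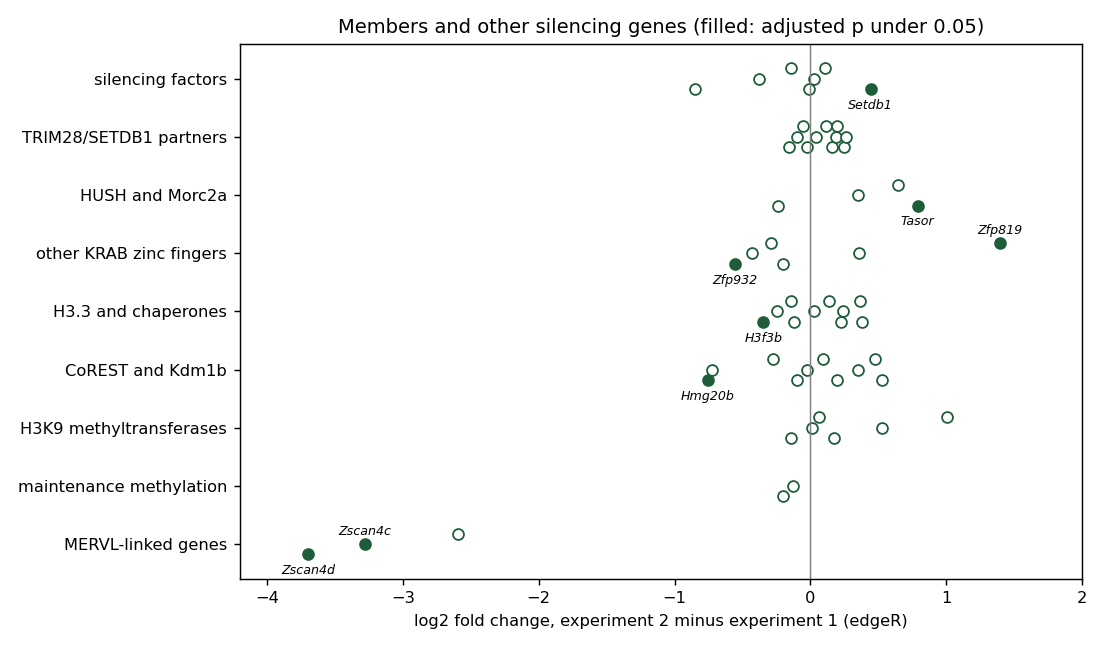
Log2 fold changes of experiment 2 minus experiment 1 (horizontal axis) for the tested genes of the 9 lists (rows), with 1 CoREST gene not shown; filled, named points have an edgeR adjusted p under 0.05. Setdb1 (0.44) is the 1 filled member, and the MERVL-linked genes lie farthest to the left.

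The start of each member was then compared with the ATAC peak lists, which give positions but no height or score. A promoter peak was a peak with a base within 1000 bp of the gene's start in the count table. Trim28 and Daxx had one in 8 of 8 lists, Zfp809 in 7, Setdb1 and Kdm1a in 6 each, Atrx in 3 and Zfp57 in 0. Together 38 of 56 pairs of a member and a list had a promoter peak (67.9%). Of the 6485 genes that averaged 10 CPM or more, which include every member but Zfp809, 32.2% had a promoter peak in all 8 lists, 19.4% in 7, 10.7% in 6, 6.85% in 3 and 4.02% in 0. Of all 24470 genes these shares were 14.8%, 9.8%, 6.28%, 5.57% and 38.4%.

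By list, 5 of 7 members had a promoter peak in both lists of experiment 1. For 10000 cells the background was 61.7% of genes averaging 10 CPM or more and 31.1% of all genes, and for 20000 cells 71.2% and 37.4%. With 5000 cells in experiment 2 it was 4 of 7 members (62.7% and 31.1% of the same gene groups), with 10000 cells 6 of 7 (76.9% and 40.5%) and with 20000 cells 6 of 7 (88.8% and 50.3%). With Omni-ATAC 2 of 7 members had one from 5000 cells (38.8% and 18.6%), 4 of 7 from 10000 cells (75.9% and 41.5%) and 6 of 7 from 50000 cells (95.7% and 61.1%). The lists ran from 9097 peaks (Omni-ATAC, 5000 cells) to 95457 (Omni-ATAC, 50000 cells), and these had the lowest and the highest background. The members did not follow the list length throughout: the Omni-ATAC list of 10000 cells, with 31207 peaks, held 4 of 7, and the low-input list of 10000 cells in experiment 2, with 29870, held 6 of 7. The read depth behind a list is unknown, so the number of cells and depth cannot be told apart.

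**Figure D4:**
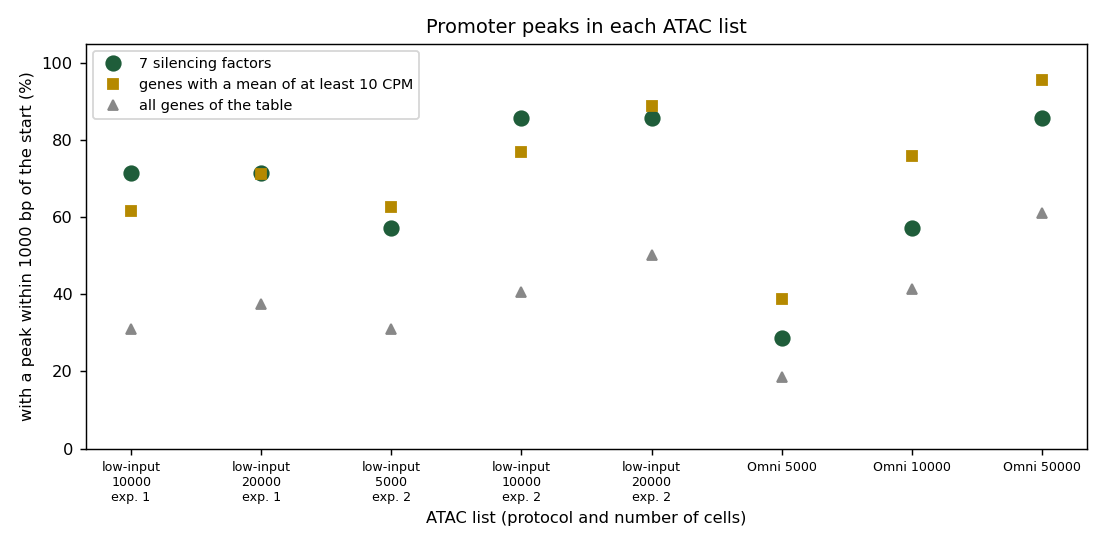
Share with a peak within 1000 bp of the start (vertical axis, percent) in each of the 8 ATAC lists, for the 7 members, for genes averaging 10 CPM or more and for all genes of the table. The members lie above all genes in each list, and close to the more highly expressed genes in the low-input lists.

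Trim28 had peaks at several places. In 7 lists it had separate peaks at the start and, within 730 to 1083 bp before it, upstream, and in the Omni-ATAC list of 50000 cells a peak of 1289 bp ran from 1003 bp before to 285 bp after the start. In the library of 5000 cells both peaks near the start spanned 9 bp, as short as any peak deposited, and that upstream 145 bp. A further region 9422 to 9923 bp upstream held a peak in all 8 lists. The gene model Gm31649 overlaps the Trim28 start in RefSeq (444 bp before to 437 bp after it).

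Daxx had a peak in all 5 low-input lists that began 244 to 338 bp before the start, ended 61 bp after it and was 306 to 400 bp wide. The unified list has it at 400 bp. In the Omni-ATAC lists of 5000 and 10000 cells the peaks there were 29 bp or less, and in that of 50000 cells 995 bp. The stretch printed for Daxx, with the most CG dinucleotides of the members' windows, lies inside the unified peak. A region 6330 to 6785 bp downstream of the start, past the end of Daxx and next to Zbtb22, also held a peak in all 8 lists.

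The Setdb1 peak was narrow. Its edge nearest the start lay 46 or 47 bp before it in all 4 low-input lists that had it. Its far edge varied there, from 55 to 161 bp before the start. The width was 9 bp, the shortest in any list, in both lists of 10000 cells, 80 bp with 20000 cells in experiment 1 and 116 bp with 20000 cells in experiment 2. The peak was missing from both lists of 5000 cells and measured 200 and 221 bp in the Omni-ATAC lists of 10000 and 50000 cells.

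Zfp809 had a peak over or just before its start in every low-input list, 78 to 107 bp wide in 4 of them and 470 bp with 20000 cells in experiment 2. It was present in every low-input list of both experiments, while the CPM of Zfp809 were lower in experiment 2. The Omni-ATAC list of 5000 cells was the one list without it. A further region inside the gene, 14404 to 14582 bp from the start, held a peak in 6 lists, 3 of them low-input.

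Kdm1a had peaks of 9 to 12 bp between 156 and 143 bp before the start in 3 low-input lists, one of 77 bp with 20000 cells in experiment 2, and with 5000 cells one of 9 bp at 45 to 53 bp after the start. The Omni-ATAC lists of 5000 and 10000 cells had none, and that of 50000 cells had a peak of 660 bp over the start. Atrx had a peak at its start with 10000 and 20000 cells of experiment 2 (32 and 116 bp) and in the Omni-ATAC list of 50000 cells (123 bp). It had none in the other 5 lists, which include both of experiment 1 and that of 5000 cells in experiment 2. The low-input lists with the Atrx peak were also the longest, at 29870 and 49508 peaks against 18637 to 27016. The Omni-ATAC list of 10000 cells, with 31207 peaks, lacked it. The part of list length was not tested. With peaks of at least 50 bp alone, Kdm1a kept a promoter peak in 2 lists, Atrx in 2, Setdb1 in 4 and Daxx in 6, while Trim28 kept it in 8 and Zfp809 in 7.

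Zfp57 had no peak within 1000 bp of its annotated start in any list, although it was counted at over 161 CPM in each mRNA library. RefSeq gives it 3 starts, at the count table's start and at 1362 and 2503 bp into the gene. In 6 of 8 lists a peak lay next to the second start. It began 1288 to 1293 bp into the gene in 5 of them and 1242 bp in the Omni-ATAC list of 50000 cells, and it was 9 to 829 bp wide. The lists without it were the experiment 1 library of 20000 cells and the Omni-ATAC library of 5000 cells. When any RefSeq start was accepted, a choice made after the data were seen, Zfp57 had a promoter peak in 6 lists, and the other 6 members kept their counts. A second region, 3496 to 4050 bp before the first start and within the span of the neighbour H2-M5, held a peak in all 8 lists, up to 543 bp wide.

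**Figure D5:**
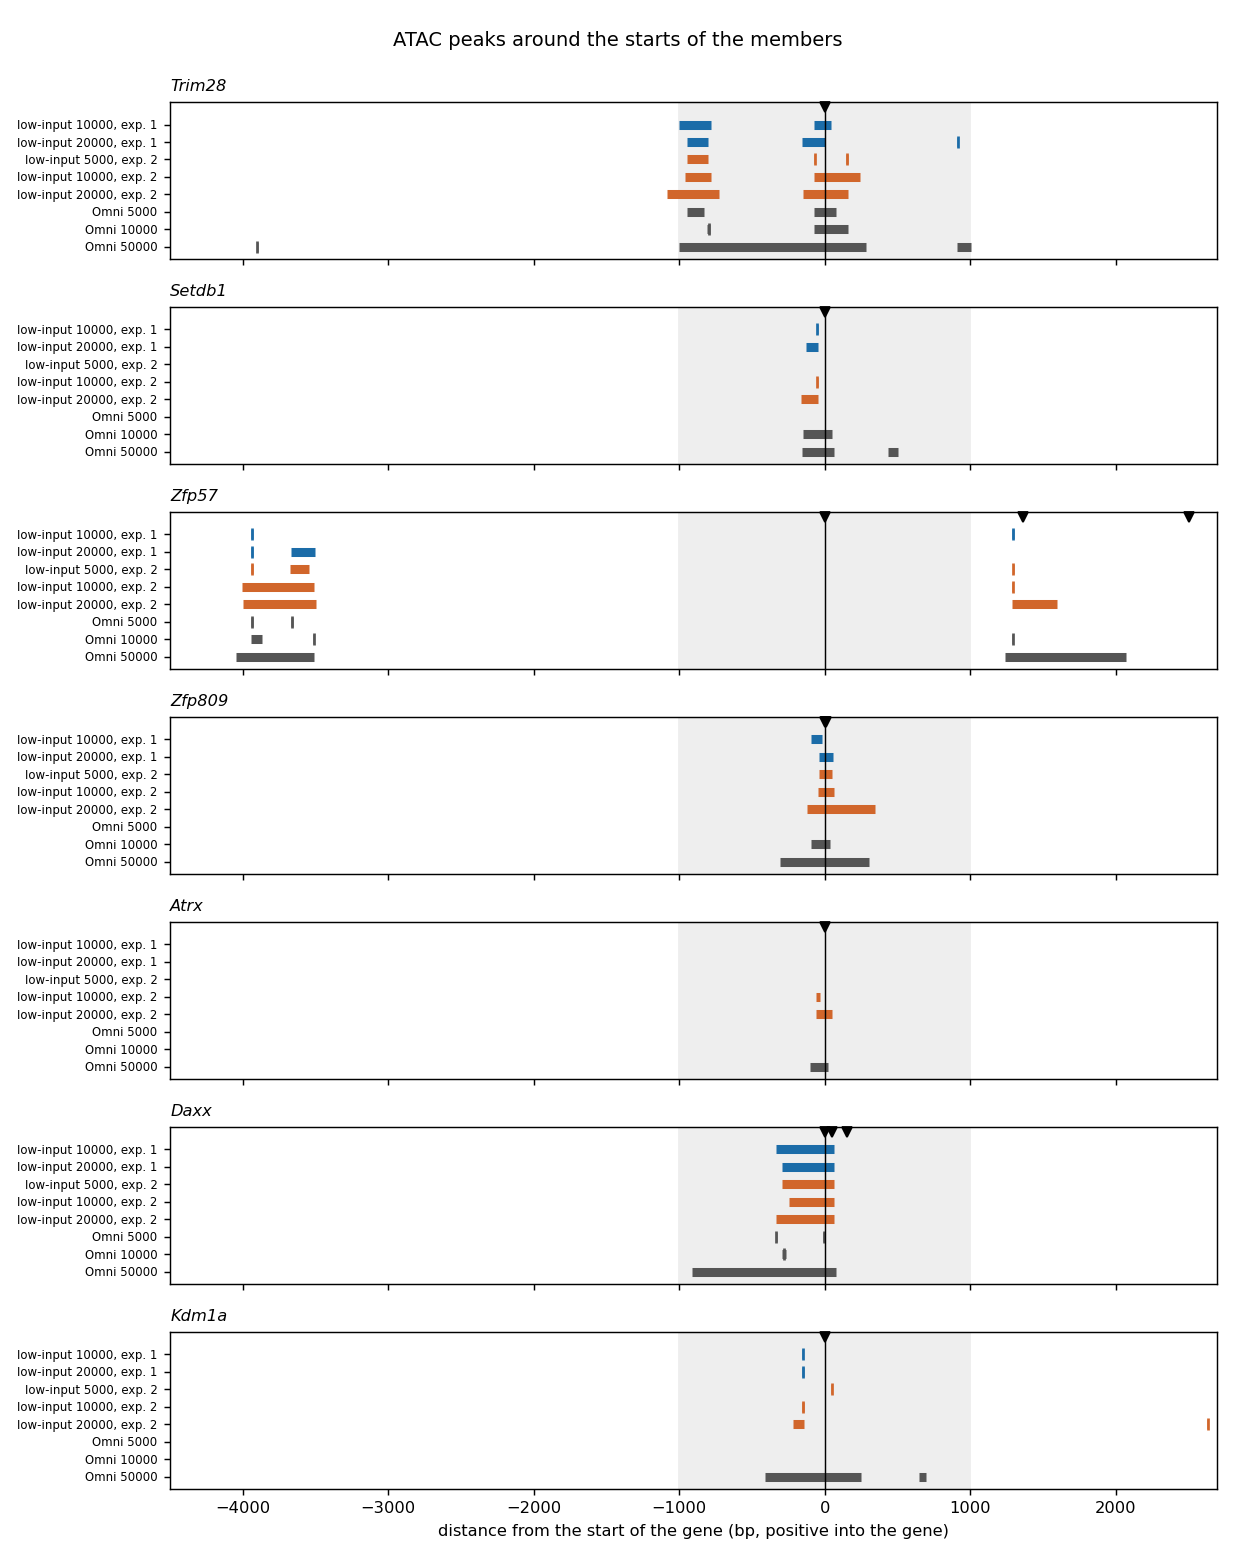
Peaks of each ATAC list (rows, labelled by protocol, cells and experiment) around the start of each member, against the distance from the start in bp; bars are drawn to scale, ticks mark peaks under 30 bp, triangles mark RefSeq starts and grey marks 1000 bp on either side. Zfp57 has no peak in the grey zone and 6 lists with one at the second triangle, 1362 bp into the gene.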

How the data were processed

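The 7 genes and all other gene lists were chosen with earlier results of these data known. Whole-number counts per gene were deposited by the authors for 5 mRNA libraries, with mm10 positions per the file headers. The submitters' processing notes name STAR 2.5, featureCounts and Subread 1.5.0-p1, and for the ATAC data Bowtie2 2.1.0 and MACS2 2.1.1, without roles. Annotation version, strand use, multiple matches and peak thresholds are not given in the sources used here. The authors deposited 8 peak lists and a unified list of 18310 regions as positions alone. Of 24470 genes, 24467 matched RefSeq (GRCm38.p6) by gene ID, and all 7 members had promoter sequences.

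CPM were computed as counts over the library's total. The comparison of experiments and that of cell numbers each used the 4 libraries of 10000 and 20000 cells in edgeR 4.0.16 (TMM, filterByExpr, glmQLFit, glmQLFTest; R 4.3.3), with Benjamini-Hochberg adjustment over all genes tested and a threshold of 0.05. A standard error is the absolute log2 fold change over the root of F. The steps were tested on simulated counts. Wilson intervals (95%) and the floor of 3 counts cover counting error only, since reads lack molecular identifiers. The series' design text says that the experiments took place on separate days, so the experiment number marks a day and pairs libraries: over 12523 genes, the log2 differences of experiment 2 from experiment 1 in the smaller and the larger libraries had an r of 0.536. No pair of libraries was a duplicate (chi-square per gene at least 10.1). The members are all named; of other lists the genes with an adjusted p under 0.05 are named, and genes named beyond this (Mphosph8, H3f3a, Cers2) were chosen after their values were seen. A gene called higher among the partners of KDM1A and a gene that ran like Zfp57 are not reported here. Alternatives were DESeq2 1.42.0, RLE factors, scaling by library size alone, testing without a filter, a mean of 10 CPM or more, blocks, the library of 5000 cells, leaving out each library, TSS distances of 500 and 2500 bp, peaks of at least 50 bp, the 9097 widest peaks and the unified list. No per-length levels were computed, since no transcript lengths were at hand.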

Additional observations from a re-analysis of the deposited data

Results flagged for a closer look

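In 4 members the difference between libraries changed sign between the experiments or the cell numbers, on the log2(CPM + 1) scale with 1 library at each point. The change of sign itself was not tested. From experiment 1 to experiment 2 Trim28 differed by -0.13 at 10000 cells and 0.087 at 20000 cells, and Daxx by 0.074 and -0.014. From 10000 to 20000 cells Setdb1 differed by 0.21 in experiment 1 and -0.11 in experiment 2, and Zfp809 by 0.052 and -0.25. With 2 libraries in the largest group, no sample could be singled out within a group.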

How the results depend on the processing

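The fitted changes of members kept their sign in each alternative, and their side of the threshold, apart from the cases named here; the cause was not tested. In the comparison of experiments 1567 genes were called, and 803 to 1817 when a library was left out. Of the members 1 was called, and 0 with library size alone (Setdb1, edgeR adjusted p = 0.0508) and with the library of 5000 cells, and 0 to 1 when a library was left out. Trim28 had 0.012 without a filter on low counts and -0.17 to 0.14 when a library was left out, and Daxx had -0.026 with the library of 5000 cells and -0.17 to 0.28 when a library was left out. Between cell numbers 2 genes were called without a filter, and 4 with the experiment as a replicate block, which pairs the libraries by day; 0 were members, and the block changed no member's call. There Setdb1 had -0.0085 among genes averaging 10 CPM or more, and with a library left out Setdb1 ran from -0.25 to 0.37, Zfp57 from -0.014 to 0.16 and Zfp809 from -0.69 to 0.35. Where a library was left out, 1 library stood for its group and was assumed to vary like the other group. The 10 CPM filter left out Zfp809, so it has no value there. Promoter peaks were found in 67.9% of pairs of a member and a list, in 51.8% with peaks of at least 50 bp and in 41.1% with the 9097 widest peaks of each list, where Setdb1 and Kdm1a kept 1 list each and Atrx 0. Within 2500 bp of the start Zfp57 had a peak in 6 lists. No lengths were given, so per-length levels were not run.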
